A study of Mus musculus with 6 samples.

Results

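Genomic imprinting marks some mammalian genes in the egg or the sperm so that mainly 1 parental copy is expressed, and 10 such genes that lie outside the Dlk1-Dio3 cluster were followed here in mouse embryonic stem (ES) cells. The 10 genes were taken by symbol from a table of 24043 gene rows, and all 10 were found. They comprise 6 paternally expressed genes (Nnat, Peg3, Peg10, Mest, Igf2 and Snrpn), 2 maternally expressed genes (H19 and Igf2r) and 2 whose parental class depends on promoter or tissue (Gnas and Grb10). RNA-seq was done on 3 libraries of Q-KO ES cells, whose genotype label says that they have no G1 cyclin, and on 3 libraries of wild-type ES cells. The medium of both groups held LIF, a cytokine that keeps ES cells undifferentiated, together with PD184352, which blocks MEK, and CHIR99021, which blocks GSK3. The strain and clonal origin of the lines were not stated in the labels. The comparison asks whether the levels of these genes differ between cells labelled Q-KO and wild-type cells.

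An imprint is most often DNA methylation laid down in one parent's germ cells at an imprinting control region, though not at every imprinted gene. It survives the loss of methylation that follows fertilisation because the zinc finger protein ZFP57 binds a methylated hexamer there and recruits TRIM28 and the DNA methyltransferases. The marked copy is often silent, and imprinted genes are known for their effects on fetal and placental growth. Undifferentiated ES cells express several of them, and in culture their imprints are known to be lost in some lines. FPKM, a fragment count scaled by gene length and by the library's total of mapped fragments, sums the reads of both parental copies, so the values below are total levels and do not show which copy was expressed.

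The ZFP57 hexamer is TGCCGC, or GCGGCA on the other strand, and promoter windows were searched for it because the windows of several imprinted genes overlap their methylated control regions. A window ran from 250 bases before to 50 bases after a gene's start, in RefSeq on build GRCm38.p6, which is not the mm9 build of the expression table. Windows were found for 8 of the 10 genes, 20 in all, and Peg10 and H19 had none in the table used. The hexamer was in 6 of these 20 windows and in 5 of the 8 genes, and 2 of the 6, both of Mest, overlap nearly whole and hold the same matches. Of the 32817 windows of all genes 11.6% held it, and 13.1% of all genes had it in a window, with a median of 1 window per gene where these 8 genes had 1 to 4. A window of Mest with 2 matches is shown because no other gene of the 10 had as many in 1 window, and 1.53% of all windows had 2 or more. Nnat, with 1 match, and Gnas, with 0 matches in its 4 windows, are shown because their levels passed the test described below. The Gnas windows that start at 174327499 and 174327518 also overlap nearly whole. The shares over all windows and genes were not matched for content of CpG dinucleotides. Capitals mark the hexamer on either strand, and a match is a string of letters, not a bound site.

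Mest, chr6:30737800-30738099, plus strand, the first of its overlapping windows with 2 matches:
Mest: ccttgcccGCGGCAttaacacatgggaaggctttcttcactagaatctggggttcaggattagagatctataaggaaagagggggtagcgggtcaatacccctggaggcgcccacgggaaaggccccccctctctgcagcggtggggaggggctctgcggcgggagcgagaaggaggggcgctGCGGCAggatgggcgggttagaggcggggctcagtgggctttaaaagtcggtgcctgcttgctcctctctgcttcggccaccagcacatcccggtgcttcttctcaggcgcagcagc

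Nnat, chr2:157559828-157560127, plus strand, the start of the gene inside Blcap:
Nnat: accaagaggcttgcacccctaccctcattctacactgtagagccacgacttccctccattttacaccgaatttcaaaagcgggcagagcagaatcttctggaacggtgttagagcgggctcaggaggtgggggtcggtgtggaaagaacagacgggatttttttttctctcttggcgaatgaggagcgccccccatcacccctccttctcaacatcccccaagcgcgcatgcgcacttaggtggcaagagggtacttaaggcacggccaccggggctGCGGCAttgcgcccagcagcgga

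Gnas, chr2:174329756-174330055, plus strand, the most downstream of its windows, with 40 CpG dinucleotides where the Nnat window above has 17 and the median window has 7:
Gnas: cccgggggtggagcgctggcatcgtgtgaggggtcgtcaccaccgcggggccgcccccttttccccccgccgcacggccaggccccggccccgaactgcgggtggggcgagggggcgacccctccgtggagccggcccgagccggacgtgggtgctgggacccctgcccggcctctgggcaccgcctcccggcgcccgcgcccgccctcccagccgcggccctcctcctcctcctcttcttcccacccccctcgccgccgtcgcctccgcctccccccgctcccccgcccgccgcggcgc

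The sum of FPKM per library ran from 525134 to 641715, and the number of fragments is unknown. Whether the replicates were grown as separate cultures is not in the labels, so each p-value reflects the spread among these libraries alone. That spread may be technical in part, and in the wild-type group it includes the difference in Y-linked transcripts given below. Wild-type replicate 3 stood apart. Its Pearson r with the other wild-type libraries, across tested genes, was 0.957 and 0.942, and the other wild-type pair had an r of 0.973. The 5 Y-linked genes examined summed to 43.2 to 70.5 FPKM in the Q-KO libraries, to 98.6 FPKM in wild-type replicate 3 and to 0 in wild-type replicates 1 and 2. As a check of the genotype label, the G1 cyclin genes Ccnd1, Ccnd3 and Ccne2 were lower in Q-KO libraries (limma adjusted p = 0.0124, 0.0101 and 0.0182). Ccne1 was not lower, at 75.4 ± 11.1 FPKM in Q-KO and 49.1 ± 10.1 FPKM in wild-type libraries (SD, n = 3 each, adjusted p = 0.113), and Ccnd2 was under 1 FPKM in both groups. Each direction below is therefore that of the libraries labelled Q-KO. The ES cell genes Pou5f1, Sox2 and Nanog were at 698 ± 92.1, 167 ± 7.51 and 536 ± 66.2 FPKM in Q-KO libraries and at 632 ± 74.1, 176 ± 14.4 and 461 ± 65.8 FPKM in wild-type libraries.

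Levels were compared as log2(FPKM + 1), which understates the change of low genes, for the 11573 genes that averaged 1 FPKM or more. Of these genes 470 passed at an adjusted p under 0.05, which is 4.06%, with 352 higher (3.04%) and 118 lower (1.02%) in Q-KO libraries. Of the 10 imprinted genes 9 passed the filter on low values, and Igf2 did not. Nnat and Gnas were higher in Q-KO libraries and none of the 10 was lower by this test. The limma test gave an unadjusted p under 0.05 to 3 of the 9, and to 2493 of all tested genes, which is 21.5%. The ranges of the groups were separate for 3 of the 9, which is 33.3%, against 27.7% of all tested genes. The median log2 change of the 9 was 0.27, beside 0.07 over all tested genes. Nnat and H19 averaged under 1 FPKM in wild-type libraries and passed the filter through the Q-KO libraries, so these counts describe the genes that passed and are no support for a direction. Bulk RNA cannot tell fewer expressing cells from less RNA per cell, which touches every level below.

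**Figure D1:**
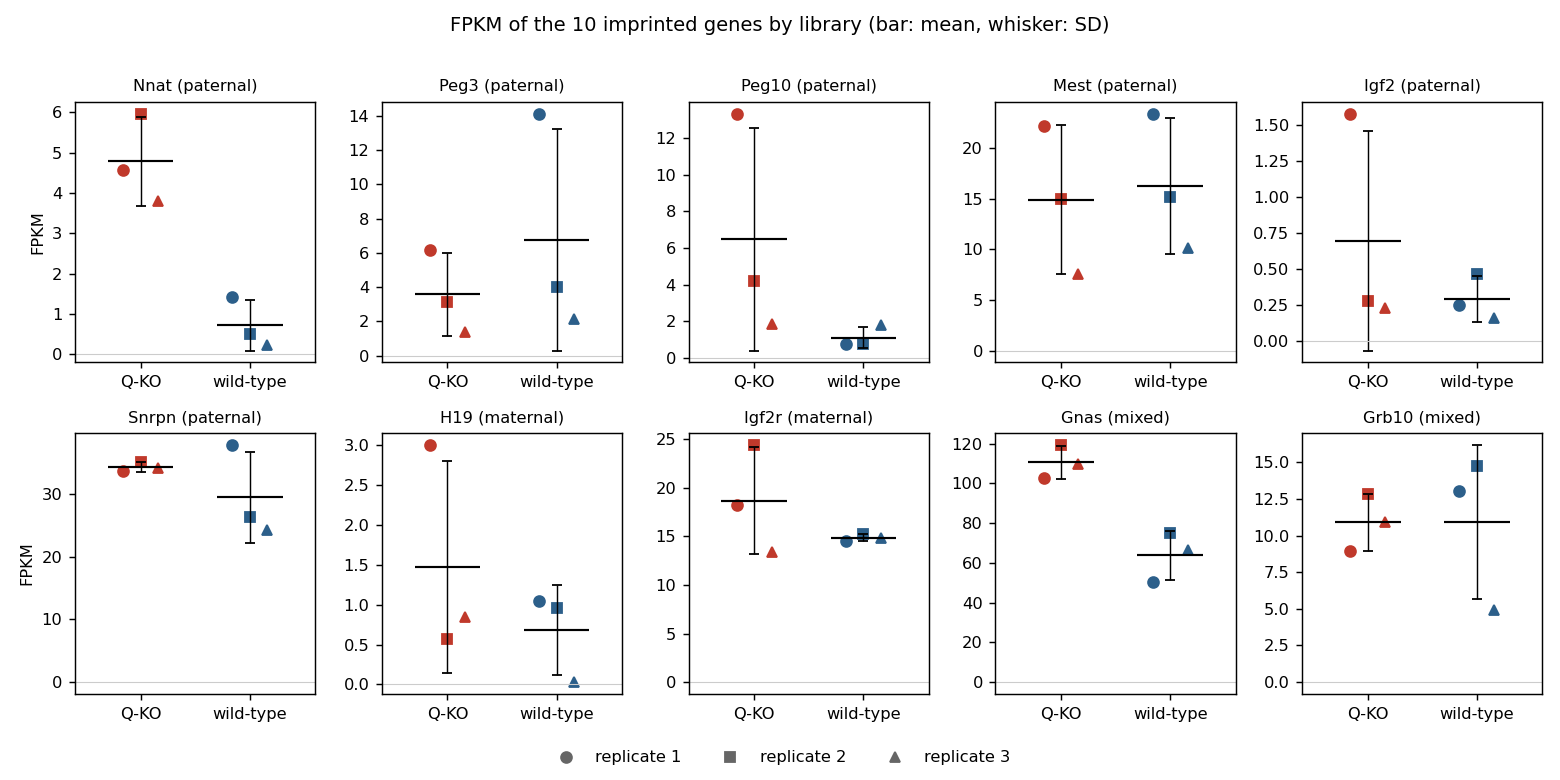
FPKM of each of the 10 imprinted genes in the 3 Q-KO (red, left) and 3 wild-type (blue, right) libraries, with the mean and SD of each group. Nnat and Gnas are higher in all 3 Q-KO libraries than in any wild-type library, H19, Igf2 and Peg10 are highest in Q-KO replicate 1, and Peg3, Mest and Grb10 overlap.

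Nnat was the paternally expressed gene of the 10 that passed. It encodes neuronatin, a small membrane proteolipid of the endoplasmic reticulum found in brain and endocrine cells. Nnat was at 4.58, 5.97 and 3.81 FPKM in Q-KO replicates 1, 2 and 3, against 1.43, 0.493 and 0.233 FPKM in wild-type replicates 1, 2 and 3. The groups did not overlap, and the wild-type libraries differed 6.12-fold among themselves where the Q-KO libraries differed 1.57-fold. Its log2 change was 1.80 (SE 0.28, 95% interval 1.15 to 2.44, adjusted p = 0.0155), and the ratio of the means was 6.66. The change was past the threshold in 3 of 6 fits that left out 1 library. It was lost without Q-KO replicate 1, 2 or 3, with adjusted p of 0.0572, 0.108 and 0.0624 and log2 changes of 1.81, 1.65 and 1.92.

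Nnat lies inside Blcap on chromosome 2, and Blcap, named after its values were seen, encodes a small apoptosis-related protein. Blcap was at 9.60, 14.0 and 12.1 FPKM in Q-KO libraries, against 9.12, 8.80 and 7.41 FPKM in wild-type libraries. The ranges were separate, and its log2 change of 0.44 did not pass (SE 0.17, adjusted p = 0.19). Strand-specific counting was not stated, so reads from stretches that overlapping genes share may not have been told apart. Whether the exons of Nnat and Blcap overlap was not examined. The 3 tested genes whose pattern over the 6 libraries was nearest to that of Nnat were Gm14685, Chrna4 and Nefm. Likeness was the mean absolute difference between mean-centred log2(FPKM + 1) values, at 0.14 for Gm14685, 0.20 for Chrna4 and 0.22 for Nefm. The 3 were picked from 11572 genes by these same values. Gm14685, the nearest, was at 3.66, 4.23 and 3.29 FPKM in Q-KO libraries and at 1.43, 0.619 and 0.139 FPKM in wild-type libraries. Chrna4, a nicotinic acetylcholine receptor subunit gene, was at 3.12, 4.23 and 2.67 FPKM in Q-KO libraries and at 0.324, 0.59 and 0.0462 FPKM in wild-type libraries. Nefm, a neurofilament gene, was at 10.5, 7.03 and 4.69 FPKM in Q-KO libraries and at 2.71, 1.03 and 0.643 FPKM in wild-type libraries.

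Peg10, a retrotransposon-derived gene needed for the placenta, spread widely among the Q-KO libraries. It was at 13.3, 4.23 and 1.85 FPKM in Q-KO replicates 1, 2 and 3, against 0.769, 0.778 and 1.78 FPKM in wild-type replicates 1, 2 and 3. The ranges were separate, but Q-KO replicate 3 and wild-type replicate 3 were nearly level. The log2 change was 1.54 (SE 0.52, 95% interval 0.33 to 2.74, adjusted p = 0.145) and did not pass. Without Q-KO replicate 1 it was 0.91 (adjusted p = 0.232). Sgce, a paternally expressed sarcoglycan gene that neighbours Peg10 on chromosome 6, was below the filter, at 1.598, 1.30 and 1.04 FPKM in Q-KO libraries and at 0.138, 0.317 and 0.909 FPKM in wild-type libraries. Its ranges were also separate, and wild-type replicate 3 was the highest wild-type library for both genes.

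Peg3, Mest and Snrpn did not pass the test. Peg3 encodes a zinc finger protein that acts in growth and maternal behaviour. It was at 6.19, 3.16 and 1.38 FPKM in Q-KO libraries, against 14.1, 3.98 and 2.15 FPKM in wild-type libraries, and the groups overlapped. Its log2 change of -0.58 (SE 0.59, 95% interval -1.94 to 0.78, adjusted p = 0.612) was 0.065 without wild-type replicate 1. Usp29, which neighbours Peg3 and is paternally expressed, was below the filter. Usp29 was at 0.262, 0.301 and 0.279 FPKM in Q-KO libraries and at 0.4, 0.927 and 1.68 FPKM in wild-type libraries, so that every Q-KO library was under every wild-type library.

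Mest encodes a hydrolase-like protein of the endoplasmic reticulum and was the gene with 2 hexamers in a window. It was at 22.2, 15.0 and 7.55 FPKM in Q-KO libraries and at 23.4, 15.2 and 10.1 FPKM in wild-type libraries. The spread within each group, 2.94-fold in Q-KO and 2.31-fold in wild-type libraries, was larger than the difference between the groups. The log2 change was -0.16 (SE 0.39, 95% interval -1.06 to 0.75, adjusted p = 0.854), and its sign turned without Q-KO replicate 3 (0.23) and without wild-type replicate 1 (0.13). Copg2, which overlaps the end of Mest, was at 17.9 ± 1.64 FPKM in Q-KO and 25.2 ± 3.45 FPKM in wild-type libraries (SD, n = 3 each) and did not pass (log2 change -0.47, adjusted p = 0.125).

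Snrpn, a spliceosome protein gene of the Prader-Willi region, varied least among the Q-KO libraries. It was at 33.6, 35.1 and 34.1 FPKM in Q-KO libraries, against 37.7, 26.3 and 24.2 FPKM in wild-type libraries. The wild-type range enclosed the Q-KO range, and the log2 change was 0.24 (SE 0.18, 95% interval -0.16 to 0.64, adjusted p = 0.469). Snurf, which shares its transcript with Snrpn, was at 1.93 ± 0.0777 FPKM in Q-KO and 1.69 ± 0.417 FPKM in wild-type libraries (SD, n = 3 each). How fragments were divided between Snrpn and Snurf was not stated, so both levels are uncertain.

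H19 and Igf2 share enhancers and a control region on chromosome 7, where the paternal copy makes Igf2, a fetal growth factor, and the maternal copy makes the noncoding RNA H19. H19 was at 3.00, 0.57 and 0.841 FPKM in Q-KO replicates 1, 2 and 3, against 1.05, 0.958 and 0.0286 FPKM in wild-type replicates 1, 2 and 3. Igf2 was at 1.58, 0.28 and 0.232 FPKM in Q-KO replicates 1, 2 and 3, against 0.246, 0.468 and 0.158 FPKM in wild-type replicates 1, 2 and 3. Both genes were highest in Q-KO replicate 1, were lowest in wild-type replicate 3, and overlapped between groups. The log2 change of H19 was 0.50 (SE 0.41, 95% interval -0.44 to 1.43, adjusted p = 0.522), and without Q-KO replicate 1 it was 0.0845. Igf2, below the filter, had a log2 difference of 0.31 and an adjusted p of 0.628 in the fit with no filter.

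Fibroblast markers were also highest in Q-KO replicate 1. Of 11 markers of fibroblast feeder cells, 8 had their highest value there, all but Thy1, Twist1 and Pdgfrb. Col1a1, a fibrillar collagen gene, was at 1.86, 0.0931 and 0.109 FPKM in Q-KO replicates 1, 2 and 3, against 0.168, 0.0961 and 0.151 FPKM in wild-type libraries. Col3a1 was at 1.35 FPKM in Q-KO replicate 1 and at 0.0322 FPKM or less in each other library. The 11 markers summed to 8.72, 3.53 and 3.30 FPKM in Q-KO libraries and to 2.29, 3.52 and 3.70 FPKM in wild-type libraries. Prrx1 and Fap were listed at 0 in all wild-type libraries. Dcn, decorin, a fibroblast proteoglycan gene that is maternally expressed in the mouse placenta, was at 0.272, 0 and 0.00717 FPKM in Q-KO libraries and listed at 0 in wild-type libraries. Of 6 markers of extraembryonic endoderm, Afp and Dab2 were also highest in Q-KO replicate 1, and Afp was listed at 0 in all wild-type libraries. The others went otherwise, with Gata4, Gata6 and Sox17 highest in wild-type replicate 2 and Sox7 highest in wild-type replicate 1. These 6 summed to 2.62, 1.93 and 1.69 FPKM in Q-KO libraries and to 1.29, 1.87 and 1.11 FPKM in wild-type libraries. Dab2, an endocytic adaptor gene, was at 1.24, 0.443 and 0.294 FPKM in Q-KO libraries and at 0.0534, 0.0703 and 0.123 FPKM in wild-type libraries, so its ranges were separate. The part of both marker lists in the levels of H19, Igf2 and Peg10 was not tested.

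**Figure D2:**
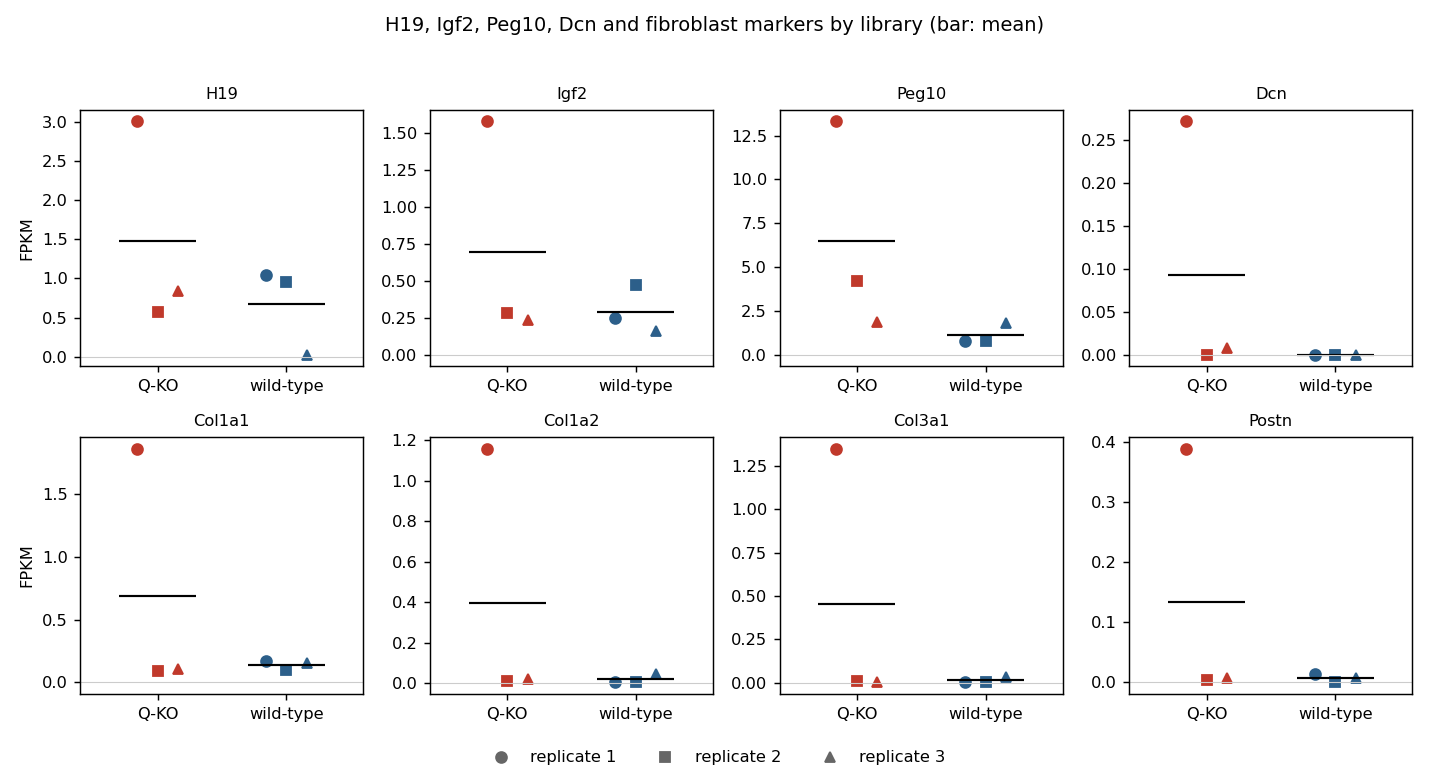
FPKM of H19, Igf2, Peg10 and Dcn (top row) and of the fibroblast genes Col1a1, Col1a2, Col3a1 and Postn (bottom row) in the 3 Q-KO (red, left) and 3 wild-type (blue, right) libraries, with the group mean. The 8 panels show only genes that were highest in Q-KO replicate 1, the red circle. The fibroblast markers that were not highest there, Thy1, Twist1 and Pdgfrb, are not shown.

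Igf2r, a maternally expressed receptor that removes IGF2, is known to be expressed from both copies in undifferentiated mouse ES cells. It was at 18.2, 24.4 and 13.4 FPKM in Q-KO libraries, against 14.5, 15.3 and 14.9 FPKM in wild-type libraries. The wild-type libraries differed by 1.05-fold and lay within the Q-KO range. The log2 change was 0.27 (SE 0.20, 95% interval -0.20 to 0.74, adjusted p = 0.483). Airn, the paternally expressed antisense RNA that overlaps Igf2r, was below the filter at 0.205 ± 0.145 FPKM in Q-KO and 0.185 ± 0.187 FPKM in wild-type libraries (SD, n = 3 each).

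Gnas encodes the stimulatory G protein alpha subunit and, from other promoters, products of maternal or paternal origin, which the table joins in 1 value. It had the highest level of the 10 genes, at 103, 119 and 110 FPKM in Q-KO libraries, against 50.6, 74.8 and 66.2 FPKM in wild-type libraries. All 3 Q-KO libraries were above all 3 wild-type libraries. The log2 change was 0.80 (SE 0.17, 95% interval 0.42 to 1.18, adjusted p = 0.0396), and the ratio of the means was 1.73. Past the threshold in 2 of 6 fits that left out 1 library, it was lost without Q-KO replicate 1, 2 or 3 or wild-type replicate 1 (adjusted p 0.0949, 0.2, 0.111 and 0.101). It was also lost under median-of-ratios scaling, which moved the median of all genes by -0.12 (log2 change 0.67, adjusted p = 0.0607), and under 4 other settings given with the alternatives.

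Nespas, an antisense RNA of the Gnas locus that is paternally expressed, was below the filter and also had separate ranges. Nespas was at 0.708, 0.604 and 0.541 FPKM in Q-KO libraries and at 0.458, 0.485 and 0.366 FPKM in wild-type libraries. The tested genes nearest to Gnas in pattern were Cnppd1, Ube2h and Slc37a2, with a mean absolute difference of 0.05, 0.06 and 0.07 on the log2 scale. Ube2h, a ubiquitin-conjugating enzyme gene, was at 17.5, 21.5 and 18.95 FPKM in Q-KO libraries and at 9.18, 13.9 and 11.02 FPKM in wild-type libraries. By limma Cnppd1 passed (adjusted p = 0.049), and Ube2h and Slc37a2 did not (adjusted p = 0.0611 and 0.117).

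Grb10 encodes an adaptor that restrains insulin and IGF signalling, and it is maternally expressed in most mouse tissues and paternally expressed in brain. It was at 8.96, 12.9 and 10.9 FPKM in Q-KO libraries, against 13.1, 14.8 and 4.94 FPKM in wild-type libraries. The mean was 10.9 ± 1.95 FPKM in Q-KO and 10.9 ± 5.25 FPKM in wild-type libraries (SD, n = 3 each), and the low library was wild-type replicate 3. The log2 change was 0.11 (SE 0.35, 95% interval -0.70 to 0.91, adjusted p = 0.892). It was -0.33 without wild-type replicate 3 and -0.012 under median-of-ratios scaling. A term for Y-linked transcripts sets the Q-KO group against wild-type replicate 3 alone, the lowest library for Grb10, and gave a log2 difference of 0.99 (adjusted p = 0.0444). That fit takes its spread from the other libraries and assumes that the lone library varies like them, so it says nothing about wild-type cells in general. Genes of chromosome 11, which holds Grb10, were higher in wild-type replicate 3 than in the mean of the other wild-type libraries, with a median difference of 0.25 on the log2 scale over 939 genes, against -0.02 over all tested genes. Chromosome 8, which holds none of the 10 genes, had the same median difference, 0.25 over 587 genes.

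By level, the order of the Q-KO means ran from Gnas (111 FPKM) through Snrpn (34.3), Igf2r (18.7), Mest (14.9), Grb10 (10.9), Peg10 (6.46), Nnat (4.78), Peg3 (3.58) and H19 (1.47) to Igf2 (0.697 FPKM). The wild-type means were 63.9 FPKM for Gnas, 29.4 for Snrpn, 14.9 for Igf2r, 16.3 for Mest, 10.9 for Grb10, 1.11 for Peg10, 0.718 for Nnat, 6.75 for Peg3, 0.678 for H19 and 0.291 FPKM for Igf2. FPKM is per length, so levels of different genes can be set side by side. Neighbours in this order from Igf2r to Igf2 overlapped in the ranges of their Q-KO libraries, and Gnas and Snrpn stood clear of the gene below them.

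Of 46 other imprinted genes listed for comparison, 45 were in the table and 25 passed the filter. Nap1l5 was higher in Q-KO libraries and none was lower, so 4% of the 25 passed, beside 4.06% of all tested genes. An unadjusted limma p under 0.05 was given to 11 of the 25, or 44%, beside 21.5% of all tested genes. Nap1l5, a paternally expressed gene derived from a nucleosome assembly gene, was at 3.83, 3.89 and 3.45 FPKM in Q-KO libraries, against 0.417, 0.524 and 0.252 FPKM in wild-type libraries. The groups were far apart, with a ratio of means of 9.36 and a log2 change of 1.76 (SE 0.17, 95% interval 1.36 to 2.159, adjusted p = 0.00398). It was the only 1 of the 25 past the threshold and stayed past it in all 6 fits that left out 1 library (highest adjusted p = 0.0441, without Q-KO replicate 2). It too passed the filter through the Q-KO libraries, and with no filter its adjusted p was 0.0164.

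The next largest changes of the list were those of Slc38a4, an amino acid transporter gene, Sfmbt2, a Polycomb gene needed for trophoblast, and Plagl1, a zinc finger growth regulator. All are paternally expressed, and none passed. Slc38a4 was at 91.4, 101 and 107 FPKM in Q-KO libraries and at 41.3, 83.7 and 37.3 FPKM in wild-type libraries (log2 change 0.96, adjusted p = 0.103). Sfmbt2 was at 9.02 ± 1.11 FPKM in Q-KO and 4.62 ± 2.33 FPKM in wild-type libraries (log2 change 0.91, adjusted p = 0.111), and Plagl1 at 38.1 ± 9.93 and 22.3 ± 8.38 FPKM (Q-KO and wild-type, log2 change 0.78, adjusted p = 0.186, SD, n = 3 each). By parental class within this list, 11 of 13 tested paternally expressed genes had a log2 change above 0, with a median of 0.58, and 5 of 12 tested maternally expressed genes did, with a median of -0.16. Of all tested genes 59.3% had a log2 change above 0. Among the 10 genes the order of the classes was the other way, with a median of 0.24 for the 5 tested paternally expressed genes, of which 3 were above 0, and of 0.38 for the 2 maternally expressed genes, both above 0. The difference between the classes was not tested. Classes were assigned from general knowledge and not from these cells, in which some of these genes may be expressed from both copies. Under median-of-ratios scaling 8 of the 13 and 5 of the 12 were above 0, and without wild-type replicate 3 the paternal median was 0.19 and the maternal median was -0.09.

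**Figure D3:**
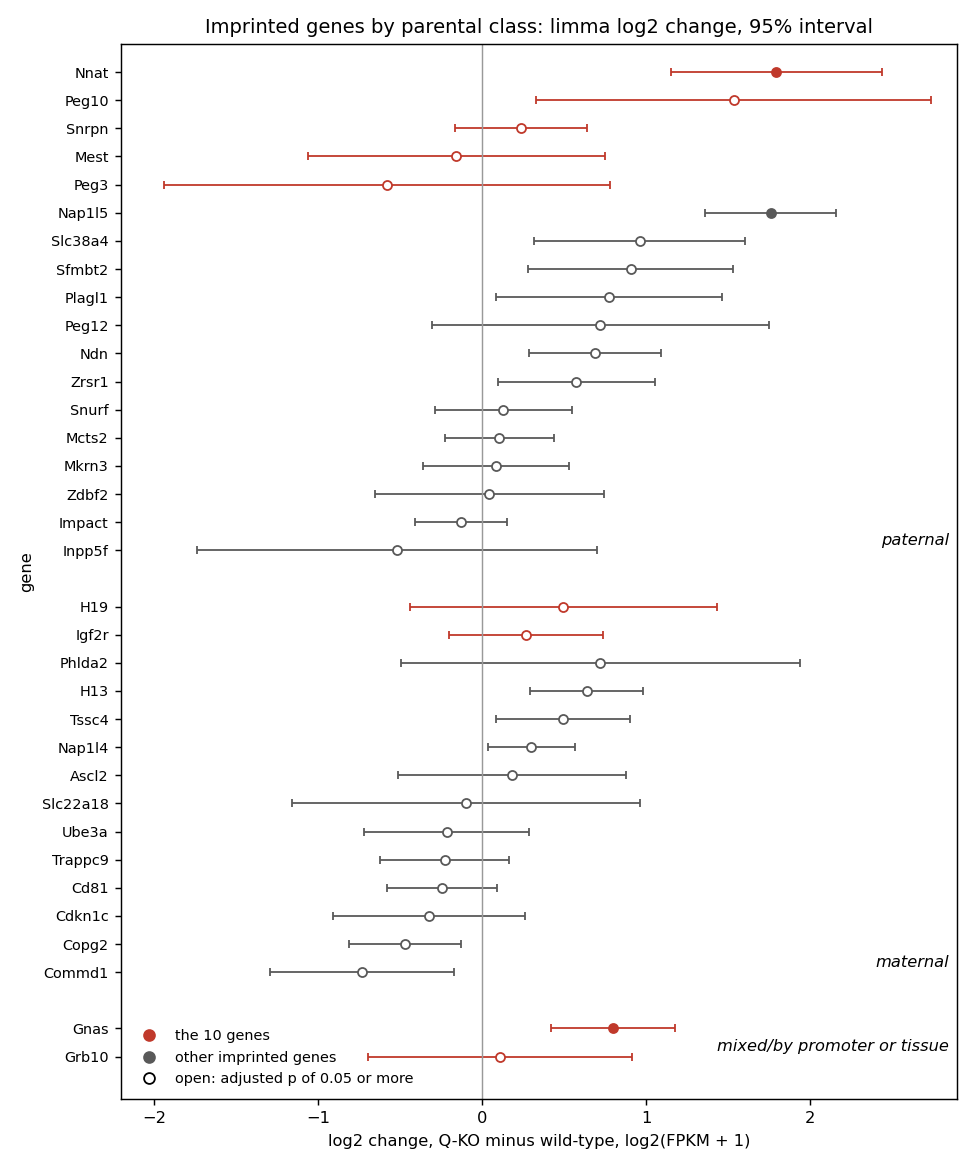
Log2 change (Q-KO minus wild-type, with the 95% interval from limma) of every tested imprinted gene, by parental class, with the 9 tested of the 10 genes in red and the others in grey. Filled points (Nnat, Nap1l5 and Gnas) passed the threshold, and the open points did not.

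Like Nnat, Nap1l5 lies inside another gene. Nap1l5 is within Herc3, a ubiquitin ligase gene, Mcts2 within H13, a signal peptide peptidase gene, and Zrsr1, a splicing factor gene, within Commd1, a copper and NF-kappaB regulator gene. These pairs were named after their values were seen, apart from the genes named above. The host gene Herc3 did not pass, at 5.13 ± 0.693 FPKM in Q-KO and 5.50 ± 0.669 FPKM in wild-type libraries (SD, n = 3 each, log2 change -0.08, adjusted p = 0.805). H13, partly maternally expressed, was at 6.51, 6.77 and 5.95 FPKM in Q-KO libraries, against 3.30, 4.03 and 3.98 FPKM in wild-type libraries (log2 change 0.64, adjusted p = 0.0597). Mcts2 within it was at 45.1 ± 2.87 FPKM in Q-KO and 42.2 ± 6.51 FPKM in wild-type libraries (log2 change 0.10, adjusted p = 0.723, SD, n = 3 each). For Zrsr1 and Commd1 the signs were opposite, with Zrsr1 at 9.78, 13.05 and 10.9 FPKM in Q-KO libraries against 7.92, 8.91 and 5.18 FPKM in wild-type libraries, and neither passed. Commd1 was at 65.4, 59.0 and 88.5 FPKM in Q-KO libraries against 95.9, 99.3 and 167 FPKM in wild-type libraries (log2 change -0.73, adjusted p = 0.138). Both lie on chromosome 11, 1 of the 2 chromosomes whose genes were high in wild-type replicate 3. In that library Commd1 was at its highest, 167 FPKM, and Zrsr1 at its lowest, 5.18 FPKM.

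**Figure D4:**
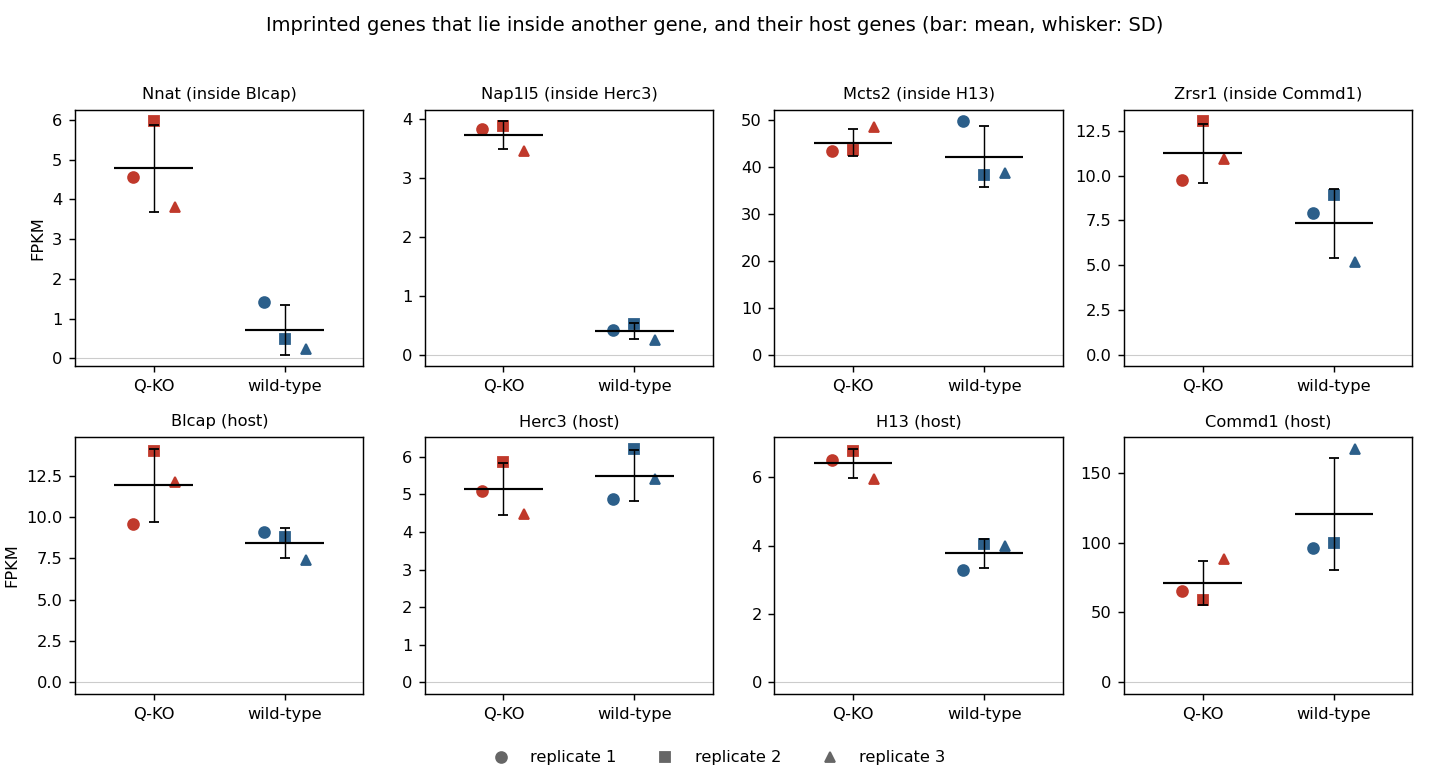
FPKM of 4 imprinted genes (top row) that lie inside another gene, and of the host gene (bottom row), in the 3 Q-KO (red, left) and 3 wild-type (blue, right) libraries, with mean and SD. Nap1l5 and Nnat are separate between groups, Herc3 overlaps, and Zrsr1 and Commd1 differ in opposite directions.

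The factors that keep, set or erase imprints, the last being Tet1 and Tet2, did not pass the test. All 16 on the list were tested, 3 had an unadjusted limma p under 0.05, a share of 18.8% beside 21.5% of all tested genes, and the median log2 change was -0.02. Those with the largest changes were Dnmt3l, the cofactor of de novo methylation (33.2 ± 13.6 FPKM in Q-KO and 18.2 ± 7.93 FPKM in wild-type libraries, log2 change 0.86, adjusted p = 0.23), and Dppa3, which protects maternal methylation in the zygote. Dppa3 was at 56.5, 55.9 and 114 FPKM in Q-KO libraries, against 43.0, 113 and 273 FPKM in wild-type libraries (log2 change -0.62, adjusted p = 0.587). Zfp57 was at 218, 222 and 242 FPKM in Q-KO libraries, against 202, 166 and 150.2 FPKM in wild-type libraries. Its ranges were separate, with a log2 change of 0.40 (SE 0.15, adjusted p = 0.166). The chromatin protein gene Rbbp4 was at 152 ± 3.85 FPKM in Q-KO and 112 ± 18.6 FPKM in wild-type libraries (SD, n = 3 each, log2 change 0.45, adjusted p = 0.138).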

How the data were processed

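The deposited data were FPKM values in 1 table, by gene symbol, for 3 Q-KO and 3 wild-type libraries. The submitters' processing notes name, without role or order, bcl2fastq 2.16, CASAVA, Cufflinks, STAR 2.5 and build mm9. Annotation, strand setting and read depth are not stated, so no counting interval was computed. FPKM divides by the library total, so abundant genes can move the values of the rest, and a listed 0 can be a failed estimate. After 1 stray header row was dropped, 24043 gene rows remained.

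Values were tested as log2(FPKM + 1) with limma 3.58.1 (R 4.3.3), using eBayes with its trend option, two-sided, in genes that averaged 1 FPKM or more. P-values were adjusted by Benjamini-Hochberg over all tested genes, with a threshold of 0.05. The test was tried on simulated data. Log2 changes are those of Q-KO relative to wild-type. The 15 alternatives are given below, and they include a fit with the robust option of eBayes and a fit on log2(FPKM + 0.1). The members, lists and tests were chosen with earlier results of these data known. The text names all 10 genes, every other imprinted gene and factor that passed, the 4 largest changes of each list and the 3 genes nearest in pattern to each called gene, and the genes named besides these were chosen after their values were seen. Same-numbered libraries had correlations of deviations of -0.03 to 0.02, and differently numbered libraries of -0.13 to 0.17, so no block was used. With 3 libraries per group these correlations cannot exclude that replicate numbers paired the samples.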

Additional observations from a re-analysis of the deposited data

How the results depend on the processing

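Of the 15 alternatives, 11 of the 14 that could test Nnat kept it past the threshold (log2 change 1.57 to 2.84). Gnas was kept by 6 of 15 (0.64 to 0.92) and Nap1l5 by all 14 that could test it (1.52 to 2.98). The upper ends for Nnat and Nap1l5 came from log2(FPKM + 0.1), a change of scale. Other alternatives gave at most 2.21 for Nnat and 1.91 for Nap1l5. Gnas was lost with no filter (adjusted p = 0.0686), quantile normalization (0.0501), no intensity trend (0.0513), median-of-ratios scaling (0.0607), the term for Y-linked transcripts (0.111) and 4 fits that left out a library. The count of the 10 genes past the threshold, 2 in the comparison as reported, was 1 with no filter, with a floor of 5 FPKM on the mean, with either scaling and with no intensity trend, and 0 to 2 when a library was left out. Nnat, Peg10, H19 and Nap1l5 could not be tested with the floor of 5 FPKM. With that filter 266 genes passed (188 higher and 78 lower) and 0 of the other imprinted genes. Median-of-ratios scaling gave 228 higher and 182 lower genes, so that 55.6% of calls were higher in place of 74.9%, and quantile normalization 210 lower, with 54.0% higher. The term for Y-linked transcripts, whose wild-type side is replicate 3 alone, assumed to vary like the other libraries, gave 894 calls (663 higher and 231 lower), among them 5 other imprinted genes higher (Nap1l5, Peg12, Plagl1, Slc38a4 and Zrsr1) and 2 lower (Inpp5f and Commd1). No intensity trend gave 2 other imprinted genes higher (Nap1l5 and H13) among 466 calls. In these fits and those without 1 library, 11573 genes were tested, 25 of them other imprinted genes. The shares called were not compared by a test. Without 1 library, 28 to 566 genes passed (25 to 412 higher and 3 to 154 lower), and 1 to 2 other imprinted genes were higher, with Slc38a4 added when wild-type replicate 2 was left out and Sfmbt2 when wild-type replicate 3 was. Without Q-KO replicate 2, 28 genes passed. Signs turned for Peg3 (0.40) and Mest (0.40) with the Y-linked term and for Grb10 with median-of-ratios scaling (-0.012). When a library was left out, Peg3 ran from -1.07 to 0.065, Mest from -0.49 to 0.23 and Grb10 from -0.33 to 0.37, and the cause was not tested. With the replicate block 333 genes passed, Nnat and Gnas among them (adjusted p = 0.0266 and 0.0461). That block moved the limma adjusted p of Peg3 from 0.612 to 0.202 and that of Mest from 0.854 to 0.616, and neither passed. By deviations from the mean of each group, 0 of 3 Q-KO libraries correlated best with the wild-type library of their own number. The depth is unknown, so levels under 1 FPKM are the least certain.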
